A study of Mus musculus with 12 samples.

Results

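A set of 10 genes that mark the cells of brain capillaries were followed on 12 arrays of hippocampal RNA from adult mice. Of them, Cldn5, Pecam1, Flt1, Kdr, Tek, Cdh5 and Slco1a4 are genes of endothelial cells, and Pdgfrb, Rgs5 and Higd1b are genes of pericytes, the mural cells that wrap capillaries. The members were all probes whose platform annotation gives 1 of these 10 symbols, which came to 16 probes of 45281 on the array and 10 genes of 19057 named there. Probes counted as measured when 6 or more of the 12 arrays detected them (detection p under 0.05). Of the 16 probes, 11 were kept, and each of the 10 genes had at least 1 kept probe. The brightest probe stands for a gene unless another is named.

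The arrays came from female C57BL/6J offspring, 12 weeks old per the labels. The EtOH group (6 arrays) is named for ethanol given to pregnant dams, who took a 10% v/v solution of their own accord per the labels, starting at 0.5 and ending at 8.5 days post-coitum. In the Control group (6 arrays) the labels carry the same treatment text, and only the sample titles set the groups apart. What Control dams drank is not given in the sources used here, and the labels do not tell litters apart, so p-values measure the spread between arrays, some of which may be of siblings. Arrays were assigned to 2 chips by a number in the sample titles, taken to be the chip barcode. On this reading, chip 1 carried 4 EtOH and 2 Control arrays, and chip 2 carried 2 EtOH and 4 Control arrays.

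Brain capillaries are lined by endothelial cells whose tight junctions and transporters form the blood-brain barrier. Growth factors of the VEGF family act on endothelial receptors to form and maintain vessels, angiopoietins act on the receptor Tek to stabilise them, and platelet-derived growth factor from the endothelium recruits pericytes through Pdgfrb. Pericytes in turn support the barrier. In RNA of a whole piece of tissue, fewer cells of a type and less RNA per cell cannot be told apart.

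Between EtOH and Control, 0 of the 10 genes passed an adjusted p of 0.05 in limma, where 0% of all 20172 kept probes did and the lowest adjusted p was 1.00. EtOH minus Control was positive for 6 genes and negative for 4, with 52.2% of all 10936 measured genes above 0 and 47.8% below. The median of the 10 differences was 0.03 on the log2 scale, beside 0.0043 over all measured genes, and the 10 ran from -0.24 to 0.23. Over the alternative fits this median ran from -0.0501 to 0.0784 and was negative in 6 of 24, among them each chip alone (-0.0027 on chip 1 and -0.0336 on chip 2) and without EtOH 3 (-0.0118) or EtOH 6 (-0.0501). In 0 of the 10 genes did the groups lie apart without overlap, against 0.119% of measured genes. At an unadjusted p under 0.05, 1 gene (Higd1b) was higher and 0 were lower, where 1.53% of measured genes were higher and 1.5% lower, and the count of higher genes was not stable between alternative fits. Half-widths of the 95% intervals of the kept member probes ran from 0.177 to 0.508, so that differences smaller than these could not be resolved. Levels below are background-corrected, quantile-normalised intensities on the log2 scale. Group means are given with SD (n = 6 each) and are not adjusted for the chip, whereas differences are.

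**Figure D1:**
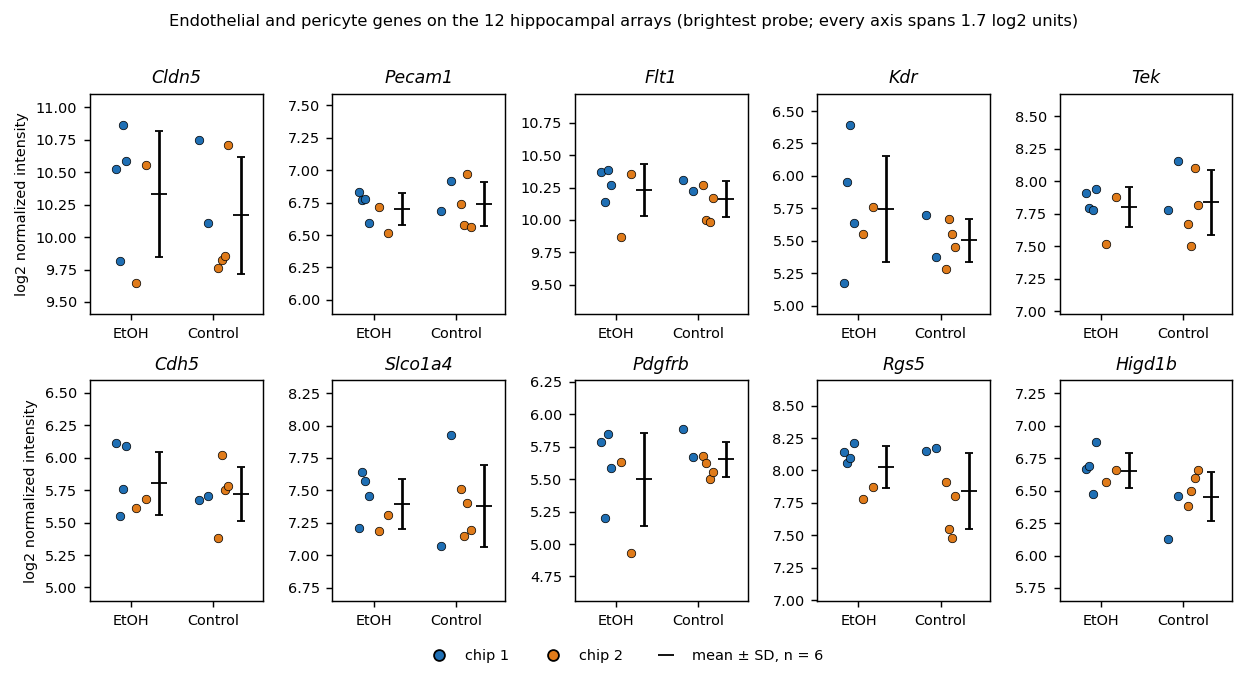
Level of each gene's brightest probe (log2, vertical axis) on the 6 EtOH and 6 Control arrays. Every vertical axis has the same span around its own centre. Points are arrays, the colour shows the chip, and bars are group means with SD. The groups overlap in all 10 panels, and the arrays of Cldn5 leave a gap between 10.11 and 10.53.

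Cldn5 encodes claudin-5, the main tight junction protein of brain endothelium. Its level on the EtOH arrays had a lowest value of 9.65, a median of 10.54 and a highest of 10.87. On the Control arrays the lowest was 9.76, the median 9.98 and the highest 10.75. Both groups thus covered nearly the same range, with means of 10.33 ± 0.48 in EtOH and 10.17 ± 0.45 in Control. The difference was 0.04 (95% interval -0.46 to 0.55), a fold of 1.03 with an interval from 0.725 to 1.47. Within the chips it was 0.02 on chip 1 and 0.07 on chip 2.

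Cldn5 had the widest interval of the 10 genes, and its arrays fell into a high and a low set. EtOH 1, EtOH 3, EtOH 4, EtOH 6, Control 1 and Control 6 lay between 10.53 and 10.87. EtOH 2, EtOH 5, Control 2, Control 3, Control 4 and Control 5 lay between 9.65 and 10.11. Each set thus held arrays of both groups and of both chips. Same-numbered arrays fell in the same set for numbers 1, 2, 5 and 6, which shared a chip. Numbers 3 and 4, on different chips, were divided. Whether the sets follow the numbers was not tested. Raw intensity ran from 930.1 to 1907.6, and all 12 arrays detected the probe, so the gap lies far above background. The SD within groups after the chip term was 0.45, which was higher than for 99.9% of the 1000 kept probes nearest in level, where the other 9 genes stood between 20.3% and 89.1%. The median of this SD over all kept probes was 0.158.

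The adhesion genes Cdh5 and Pecam1 varied less. Cdh5, VE-cadherin of the endothelial adherens junction, ran from 5.55 through a median of 5.72 to 6.11 on EtOH arrays. Control arrays ran from 5.38 through 5.73 to 6.02, so the medians nearly coincided. The Cdh5 probe was dim, with raw intensity from 147.2 to 187.9, where the unkept member probes reached 152. The difference was 0.05 (95% interval -0.22 to 0.33), with 0.19 on chip 1 and -0.08 on chip 2. Pecam1, the adhesion molecule CD31, had the narrowest spread of the 10 genes, 1.37-fold over all 12 arrays. It ran from 6.51 through 6.74 to 6.83 in EtOH, and from 6.56 through 6.71 to 6.97 in Control. The groups overlapped over most of their range, and the difference was -0.08 (95% interval -0.26 to 0.11). A second kept Pecam1 probe, dimmer and detected on 11 arrays, gave -0.13 (95% interval -0.49 to 0.22), but its within-chip values were -0.50 on chip 1 and 0.23 on chip 2. Pecam1 was the one gene with more than 1 kept probe, and its probes agreed on the sign of the difference and not on the sign within chip 2.

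Of the VEGF receptors, Flt1 (VEGFR1) binds VEGF-A tightly and limits its supply, and Kdr (VEGFR2) carries most of the endothelial response. Flt1 ran from 9.86 through a median of 10.31 to 10.38 on EtOH arrays, against 9.99 through 10.20 to 10.31 on Control arrays. EtOH 1, EtOH 3 and EtOH 6 lay above every Control array and EtOH 5 lay below every one. The difference was 0.01 (95% interval -0.18 to 0.21), a fold of 1.01 with an interval from 0.881 to 1.16. Kdr ran from 5.18 through 5.70 to 6.39 on EtOH arrays. On Control arrays it ran from 5.28 through 5.50 to 5.70, so that both the lowest and the highest array were EtOH. The SD was 0.41 in EtOH and 0.16 in Control. Its difference was 0.21 (95% interval -0.16 to 0.59), and 5 of the 6 EtOH values exceeded the median of Control. Kdr was a dim probe, detected on 11 of 12 arrays, where probes detected on 0 arrays had a median level of 4.64.

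Tek, the angiopoietin receptor Tie2, ran from 7.52 through 7.83 to 7.94 on EtOH arrays, and from 7.50 through 7.80 to 8.15 on Control arrays. Control 2 and Control 5 lay above all other arrays. Its difference was -0.10 (95% interval -0.33 to 0.14), with -0.11 on chip 1 and -0.08 on chip 2. Slco1a4 encodes an organic anion transporter of the capillary wall. EtOH arrays ran from 7.18 through 7.38 to 7.64, and Control arrays from 7.07 through 7.30 to 7.93. Control 1 was the lowest and Control 2 the highest of all arrays, so Control enclosed EtOH. The difference was -0.05 (95% interval -0.34 to 0.25), and without Control 2 it was 0.11.

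Among the pericyte genes, Pdgfrb, the receptor for platelet-derived growth factor B, had the most negative difference of the 10 genes. It was detected on 4 of 6 EtOH and 6 of 6 Control arrays. EtOH arrays ran from 4.93 through 5.61 to 5.85, and Control arrays from 5.50 through 5.65 to 5.89. EtOH 6 and EtOH 2 lay below all Control arrays, and the other 4 EtOH arrays lay within the Control range. The difference was -0.24 (95% interval -0.53 to 0.05, unadjusted p = 0.096 in limma), and the exact permutation test within chips gave p = 0.187 (two-sided). It was -0.09 without EtOH 6, and -0.07 without background correction.

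Rgs5 encodes a regulator of G protein signalling that marks brain pericytes. It ran from 7.78 through 8.07 to 8.21 on EtOH arrays, and from 7.48 through 7.86 to 8.17 on Control arrays. In EtOH, 5 of 6 values exceeded the median of Control, while the chip-adjusted difference was 0.05 (95% interval -0.12 to 0.23). Within chips it was -0.04 on chip 1 and 0.14 on chip 2.

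Higd1b, a member of the HIG1 hypoxia-inducible domain family and a pericyte marker, had the most positive difference. EtOH arrays ran from 6.48 through a median of 6.66 to 6.88. Control arrays ran from 6.12 through 6.48 to 6.66, with Control 1 lowest. Higd1b averaged 6.65 ± 0.13 over EtOH arrays and 6.45 ± 0.19 over Control arrays, and 5 of 6 EtOH values exceeded the median of Control. The difference was 0.23 (95% interval 0.02 to 0.44), a fold of 1.17 with an interval from 1.02 to 1.35. Its unadjusted p was 0.0309 and its adjusted p 1.00 in limma. The exact permutation test within chips gave p = 0.0489 (two-sided, smallest possible 0.00444 over 225 regroupings). Within chips the difference was 0.38 on chip 1 and 0.08 on chip 2. Without Control 1 it was 0.13, and without background correction 0.0981. Its unadjusted p was under 0.05 in 13 of 24 alternative fits with limma and not in the other 11, which included no background correction, array weights and leaving out any 1 of EtOH 1, EtOH 2, EtOH 4, Control 1 and Control 3.

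**Figure D2:**
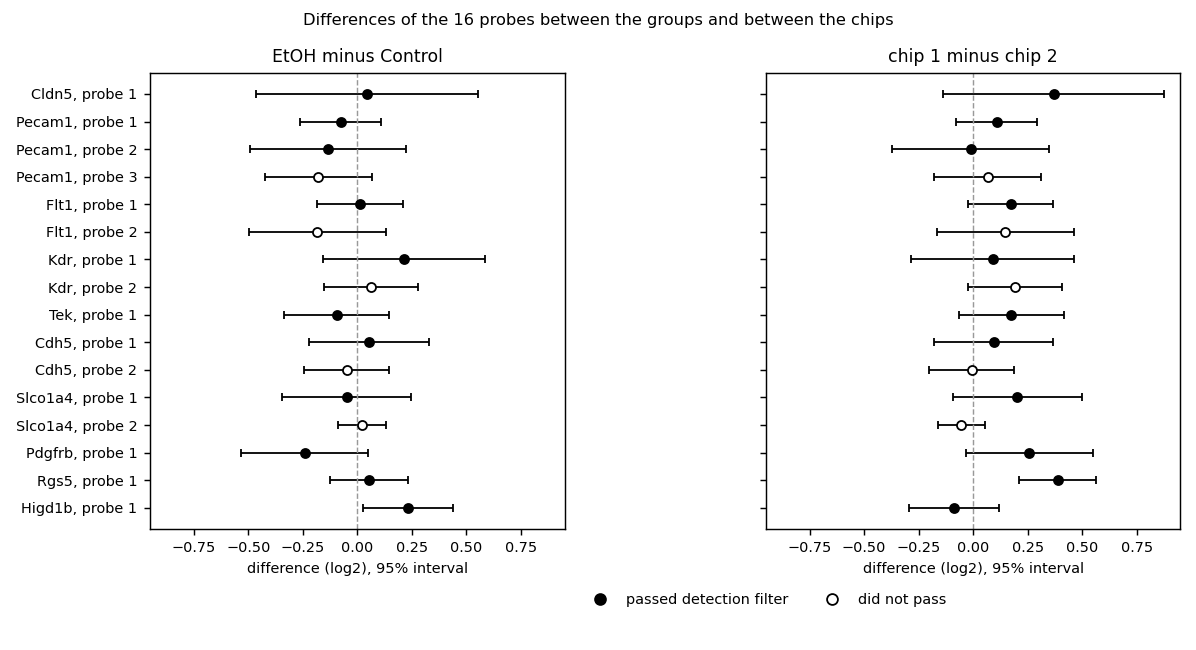
Differences of all 16 probes with 95% intervals (log2, horizontal axis), EtOH minus Control on the left and chip 1 minus chip 2 on the right; filled points passed the detection filter. On the left, the interval of Higd1b (0.02 to 0.44) is the one that leaves out 0, and on the right that of Rgs5 (0.21 to 0.56).

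The 5 probes that did not pass the filter were the dimmest Pecam1 probe and the second probes of Flt1, Kdr, Cdh5 and Slco1a4. Their raw intensity stayed between 93 and 152. None was detected on any array, except that the Flt1 probe was detected on 1 Control array, so the values of these 5 give no second reading of their genes.

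The 10 genes were also set side by side between the chips. Of the 10 genes, 9 were higher on chip 1 than on chip 2, where 50.7% of measured genes were, and the exception was Higd1b at -0.09. The median difference of chip 1 minus chip 2 was 0.17, beside 0.00197 over all measured genes. For none of the 10 did it pass an adjusted p of 0.05 in limma, where 0.512% of measured genes did. The chip holds unequal numbers of EtOH arrays, which is why the differences above carry a term for it.

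Rgs5 stood at one end of that range. Its chip 1 arrays lay between 8.06 and 8.21, and its chip 2 arrays between 7.48 and 7.91, so that the chips did not overlap. This held for 1 of the 10 genes and for 2.78% of measured genes. The difference was 0.39 (95% interval 0.21 to 0.56, adjusted p = 0.0574 in limma). It passed the threshold without background correction (0.258, adjusted p = 0.0243 in limma) and with the authors' normalised table (0.258, adjusted p = 0.0242 in limma). With a stricter detection filter it was 0.387 (adjusted p = 0.0332 in limma), and without the group term 0.404 (adjusted p = 0.0226 in limma). When any 1 array was left out, it ran from 0.349 to 0.426 and did not pass. Cldn5 differed by 0.37 (95% interval -0.14 to 0.88) and Pdgfrb by 0.26 (95% interval -0.03 to 0.55). Whether the chips differ in animals, RNA or hybridisation is not given in the sources used here.

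Whether the 10 genes varied together from array to array was examined in all 45 pairs over the 12 arrays. Of these, 28 had r above 0, the median r was 0.13, and 0 pairs passed 0.05 after Benjamini-Hochberg adjustment by r or by rho. The lowest adjusted p was 0.21 for r and 0.582 for rho (permutation tests), and 2 pairs had an unadjusted p of r under 0.05. After removing group and chip means, the median r was -0.03. The 21 pairs of endothelial genes had a median r of 0.15, and the 3 pairs of pericyte genes -0.03.

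Cldn5 and Flt1 were the pair with the highest r, 0.75 (permutation p = 0.0051, adjusted p = 0.21). Their rho was 0.65 (permutation p = 0.0258, adjusted p = 0.582). Without the 2 arrays farthest from the Cldn5 median r was 0.81, within chip 1 it was 0.89 and within chip 2 it was 0.62 (n = 6 arrays each, no test). EtOH 5 was lowest in both genes and EtOH 3 highest in both. Flt1 and Rgs5 came next, with r = 0.71 (permutation p = 0.0093, adjusted p = 0.21) and rho = 0.59 (permutation p = 0.0455, adjusted p = 0.683). Here r was 0.65 without the 2 farthest arrays, 0.18 within chip 1 and 0.64 within chip 2. Pdgfrb and Higd1b, both pericyte genes, had the lowest r, -0.50 (permutation p = 0.107, adjusted p = 0.689). Their rho was -0.65 (permutation p = 0.0253, adjusted p = 0.582), and r within chips was -0.57 on chip 1 and -0.60 on chip 2.

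**Figure D3:**
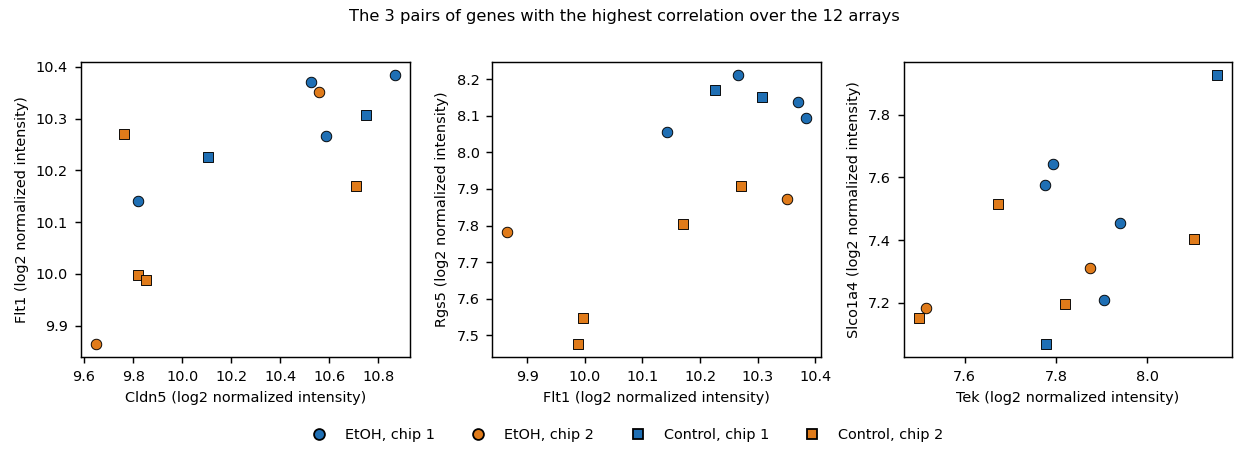
Levels of the gene pairs with the highest Pearson correlation over the 12 arrays (log2, 1 gene on each axis, 1 pair per panel). Points are arrays, the marker shape shows the group and the colour shows the chip. The pairs are Cldn5 with Flt1 (r = 0.75), Flt1 with Rgs5 (0.71) and Tek with Slco1a4 (0.53).

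Over the other 10935 measured genes, Flt1 ranked 123rd in likeness to Cldn5, by r over the 12 arrays, and Rgs5 ranked 1004th. The 5 genes most like Cldn5 were Fam13b (r = 0.91), Kcnma1 (0.90), Fam8a1 (0.90), Lzts3 (0.90) and Cct4 (0.89). Those most like Rgs5 were Glg1 (r = 0.96), Dnajc3 (0.92), Smarca2 (0.91), Zfp551 (0.89) and Chfr (0.89), while Flt1 ranked 267th. None of these 10 genes belongs to the vessel lists described below. With group and chip means removed, 1 of the 5 remained among the 5 most like Cldn5 (Fam13b) and 1 among those most like Rgs5 (Glg1). These correlations are descriptions over 12 arrays that share chips and group labels.

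RefSeq's GRCm38.p6 table gave a region of 300 bases around the transcription start for 6 of the 10 genes. The regions of Cldn5, Flt1 and Rgs5 are shown, since the chip and pair results turn on these genes and they differ in the ETS core, the letters GGAA (TTCC on the other strand), bound by ETS factors that act in endothelial genes. The core is in capitals, and sequences run 5′ to 3′ on the gene's strand. The Cldn5 region is chr16:18776597-18776896 (plus strand), the Flt1 region chr5:147725962-147726261 (minus strand) and the Rgs5 region chr1:169655251-169655550 (plus strand).
Cldn5: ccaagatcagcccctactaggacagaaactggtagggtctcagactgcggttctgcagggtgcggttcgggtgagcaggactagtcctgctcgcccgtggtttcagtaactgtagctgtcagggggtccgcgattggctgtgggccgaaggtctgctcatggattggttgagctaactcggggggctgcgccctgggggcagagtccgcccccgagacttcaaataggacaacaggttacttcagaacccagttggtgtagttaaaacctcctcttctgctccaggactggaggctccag
Flt1: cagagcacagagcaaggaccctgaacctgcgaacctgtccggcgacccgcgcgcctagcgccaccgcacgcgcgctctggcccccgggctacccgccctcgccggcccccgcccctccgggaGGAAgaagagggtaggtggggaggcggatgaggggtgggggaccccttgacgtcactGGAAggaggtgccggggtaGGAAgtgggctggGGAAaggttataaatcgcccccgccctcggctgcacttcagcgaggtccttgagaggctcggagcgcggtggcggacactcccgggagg
Rgs5: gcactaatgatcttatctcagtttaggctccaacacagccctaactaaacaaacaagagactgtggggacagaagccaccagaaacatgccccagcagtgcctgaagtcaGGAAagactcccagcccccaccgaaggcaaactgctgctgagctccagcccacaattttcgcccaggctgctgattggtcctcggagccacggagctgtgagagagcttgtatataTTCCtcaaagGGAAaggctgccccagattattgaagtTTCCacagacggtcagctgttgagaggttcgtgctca
Flt1 and Rgs5 hold 4 matches each, and Cldn5 holds 0 in this window. Over 32851 start regions of the same length 96% hold at least 1 match, with a median of 3. Of the other genes with a region, Kdr and Slco1a4 hold 5 each and Tek holds 2. The letters GGGCGG, the GC box, searched on both strands, match 1 time in Cldn5, 3 times in Flt1 and 2 times in Kdr, against 35.7% of all regions with any match. TATAAA matches 1 time, in Flt1, against 13.6% of regions. Each motif was counted by itself, so matches of different motifs may share bases. A match is a run of letters and not a measured binding site.

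Other genes of the same pathways were taken from 12 lists of vessel genes, in which 0 genes passed the adjusted threshold. Counts below are positive and negative differences of EtOH minus Control among measured genes. The 7 junction and adhesion genes gave 3 positive and 4 negative, with a median of -0.01. Icam2, an adhesion molecule for leukocytes, had -0.17, and Mcam, an adhesion molecule of endothelium and pericytes, 0.19.

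The 8 VEGF ligands and co-receptors gave 4 of each sign and a median of 0.02. Flt4, the receptor for VEGF-C, averaged 5.44 ± 0.12 on EtOH arrays and 5.16 ± 0.21 on Control arrays, and the difference was 0.27 (95% interval 0.05 to 0.49, adjusted p = 1.00 in limma). Flt4 was dim, where probes detected on 0 arrays had a median level of 4.64. Its ligand Vegfc had -0.18, and all 6 EtOH values were below the median of Control, while the co-receptor Nrp1 had -0.11. Around Tek, 3 partners were measured, and the median was -0.13. Angpt2, a ligand that mostly opposes Tek signalling, had -0.34 (95% interval -0.71 to 0.04), and Ptprb, a phosphatase that restrains Tek, -0.13.

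Around Pdgfrb, the 4 genes of the PDGF list split into 2 of each sign. Pdgfb, its endothelial ligand, had -0.05 (95% interval -0.20 to 0.10). Pdgfc, a ligand that acts mainly on the sister receptor Pdgfra, ran from 5.88 through a median of 6.19 to 6.24 on EtOH arrays. Control arrays ran from 5.73 through 5.83 to 6.04, so that all 6 EtOH values exceeded the median of Control although the groups overlapped. The difference was 0.32 (95% interval 0.16 to 0.49, adjusted p = 1.00 in limma), with 0.34 on chip 1 and 0.31 on chip 2. Pdgfc too was dim, where kept probes had a median level of 7.74 and probes detected on 0 arrays 4.64.

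The 11 barrier transport genes beside Slco1a4 gave 4 positive and 7 negative, with a median of -0.07. Slc3a2, the heavy chain of amino acid transporters, had -0.18, and Slco2b1, another organic anion transporter, -0.07. The lipoprotein receptor Lrp8 had 0.06. Of 10 endothelial transcription factors, 5 had each sign, with Sox18 at -0.26, the ETS factor Ets1 at -0.12 and Sox7 at 0.22. The 10 genes of Wnt signalling to endothelium, which maintains the barrier, gave 4 positive and 6 negative. Reck, a part of the Wnt7 receptor complex, had -0.17, the Wnt co-receptor Lrp6 0.14 and the Wnt target Axin2 0.14.

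Among 23 other endothelial markers, 7 were positive and 16 negative, with a median of -0.06. Cd93 had -0.23, Vwf, the von Willebrand factor, -0.27 and Sparcl1 0.15. The 8 arterial and venous genes gave 2 positive and 6 negative, with Gkn3, an arterial gene, at -0.39, the venous receptor Ephb4 at -0.11 and the venous factor Nr2f2 at -0.21. Of 3 genes of leukocyte adhesion and leak, Icam1 had 0.14 and Plvap, which is scarce in intact barrier endothelium, 0.13. The 12 other pericyte genes gave 5 positive and 7 negative, with Ifitm1 at -0.38, Vtn at -0.13 and Gper1 at -0.11. In the lists of angiopoietin partners, barrier transport, other endothelial, arterial and venous, and other pericyte genes, Control 2 had the highest list mean of all 12 arrays.

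**Figure D4:**
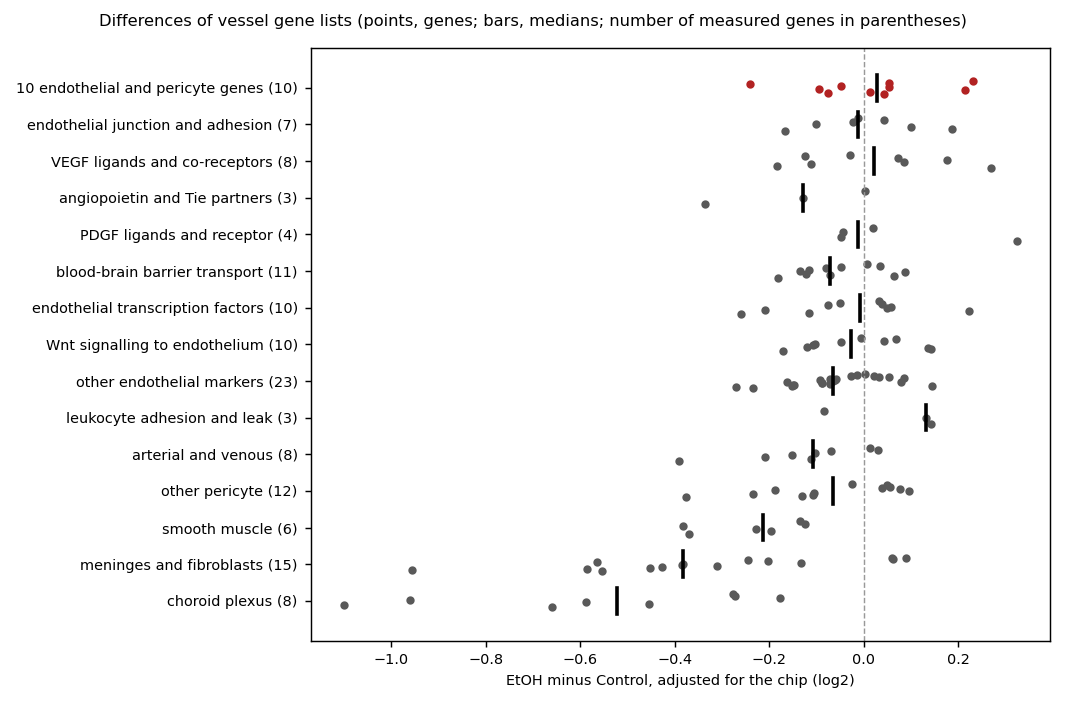
EtOH minus Control difference (log2, horizontal axis) of each measured gene of the 10 genes, of 12 vessel lists and of 2 other lists. These are meninges with fibroblasts, and choroid plexus. Points are genes and bars list medians. The 10 genes centre near 0 (median 0.03), while smooth muscle (-0.21), meninges (-0.38) and choroid plexus (-0.52) lie to the left.

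Smooth muscle genes, which mark the mural cells of larger vessels, were the one vessel list with all measured genes on the same side. All 6 had negative differences, with a median of -0.21, and 4 (Acta2, Mylk, Myl9, Myh11) had an unadjusted p under 0.05, where 1.5% of measured genes did so in that direction. Acta2, smooth muscle actin, ran from 10.35 through a median of 10.52 to 10.84 on EtOH arrays. On Control arrays it ran from 10.55 through 10.84 to 11.24, and all 6 EtOH values were under the median of Control. The difference was -0.37 (95% interval -0.62 to -0.12, adjusted p = 1.00 in limma). Without Control 2, the list median was -0.17.

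Markers of tissue at the border of the hippocampus gave differences of the same sign as smooth muscle. Of 15 measured genes of meninges and fibroblasts, 12 had negative differences and the median was -0.38. As in smooth muscle, 4 of them (Slc22a6, Slc47a1, Mgp and Slc6a13) had an unadjusted p under 0.05, and the brightest, Dcn, had -0.24 (95% interval -0.83 to 0.35). Their mean level ran from 7.27 to 8.05 on EtOH arrays and from 7.52 to 8.37 on Control arrays. All 8 measured choroid plexus genes had negative differences adjusted for the chip, with a median of -0.52 and none at an unadjusted p under 0.05. The 95% intervals were wide, from -1.02 to 0.67 for Trpv4 and from -4.58 to 2.38 for Ttr. Before adjustment, Kl (8.51 in EtOH, 8.38 in Control), Calml4 (6.10, 6.01) and Trpv4 (5.73, 5.65) had higher means in EtOH. The other plexus genes had lower ones. Mean levels of the list ran from 6.56 to 10.44 on EtOH arrays and from 6.49 to 10.65 on Control arrays. Ttr, the most abundant plexus transcript, lay between 15.39 and 15.47 on EtOH 2, EtOH 4, Control 2 and Control 4 and between 7.92 and 11.57 on the other 8 arrays. Of 6 ependymal genes, which mark the ventricle lining, 2 had positive and 4 negative differences, with a median of -0.06. The brightest, Rsph1, had -0.24, and EtOH 4 had the highest mean of that list. Control 2 was the highest array in the smooth muscle, meninges and plexus lists alike, and the part of these tissues in the vessel differences was not tested. Without the 4 arrays, 6 of the 10 endothelial and pericyte genes were positive, the median was 0.02 and 0 had an unadjusted p under 0.05. With the plexus level as a covariate, 4 of the 10 were positive and the median was -0.01. In that fit Higd1b had 0.26 (unadjusted p = 0.0115 in limma) and Pdgfrb -0.28 (unadjusted p = 0.0518 in limma).

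Of 9 measured neuronal markers, the brightest, Syt1, a synaptic vesicle protein, lay between 14.79 and 14.99 on EtOH arrays. On Control arrays it lay between 14.75 and 14.89. The median difference of the neuronal markers was -0.03, and the region of the dissection was not tested with them. It was 0.02 for 8 astrocyte markers, with Slc1a3 brightest at 0.09, and -0.01 for 9 microglial markers, with Fcrls brightest at -0.02. Red cell markers, which can follow blood left in vessels, had 3 measured genes with a median of 0.04, and Hbb-bt, the brightest, had 0.07. The median raw intensity of an array was between 126 and 146.9, the correlation between arrays was 0.983 to 0.994, and between 19748 and 20858 probes were detected per array.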

How the data were processed

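Each sample was hybridised to 1 Illumina bead array, read in 1 colour. Per the file headers, the authors deposited a signal intensity and a detection p-value for each of 45281 probes, on a linear scale and not normalised. The submitters' processing notes name GenomeStudio 1.9.0. The authors also deposited a table of normalised intensity, used as an alternative.

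Intensities were corrected and quantile-normalised by limma's neqc function (limma 3.58.1, R 4.3.3) with an offset of 16 and the background inferred from detection p-values. The detection filter left 20172 probes. Groups were compared with lmFit and eBayes with the chip as a fixed term, two-sided, and Benjamini-Hochberg adjustment ran over all kept probes. Single genes were also tested by exact permutation within chips, and pairs of genes by 100000 permutations. The fit was tested on simulated data. Precision is limited by the number of arrays. The median half-width of an interval was 0.204 on the log2 scale.

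The members and the 20 gene lists were chosen with earlier results of these data known, so their counts are descriptions. Named list genes were the 3 with the smallest p of each list of vessel genes (2 for lists of under 8 measured genes) and the brightest of each list of other tissues. Myl9, Myh11, Slc22a6, Slc47a1, Mgp, Slc6a13, Trpv4, Kl and Calml4 were added after their values were seen. For 4 genes an older symbol was updated. Of probes, 34885 name 1 gene, 18 several and 10378 none. Alternatives changed the correction, normalisation, source table, filter, chip term, array weights, replicate block, plexus covariate and each array in turn.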

Additional observations from a re-analysis of the deposited data

Results flagged for a closer look

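Of 70 sets of 6 arrays examined for a single distant array, 1 had one, and chance gives about 1 in 20. The mean level of the 3 measured angiopoietin and Tie partners was 7.17 in EtOH 4, and the nearest EtOH array had 6.84. The gap was 0.659 of the range of the 6 EtOH arrays. Control 2 had the highest mean of this list, and both arrays were among the 4 with high Ttr. The part of choroid plexus or meningeal tissue in this value was not tested.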

How the results depend on the processing

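No probe passed the adjusted threshold for EtOH against Control under any alternative run, and the number at an unadjusted p under 0.05 ran from 458 to 1913. The lowest adjusted p in limma was 0.0709 without Control 2, and the next lowest was 0.62 without EtOH 6. Of 376 alternative values of the 16 member probes' differences, 27 had the other sign, 20 of kept probes and 7 of probes that were not kept. Cldn5 became -0.22 with a replicate block, -0.027 with the plexus covariate and -0.0227 without the 4 high-Ttr arrays, and ran from -0.13 to 0.21 when 1 array was left out. Flt1 became -0.0099 with the covariate and ran from -0.0758 to 0.11 with 1 array left out. Slco1a4 became 0.0194 without the chip term and 0.036 without the 4 arrays, and ran from -0.214 to 0.107 with 1 array left out. The second Pecam1 probe was 0.23 and Cdh5 -0.0839 on chip 2 alone, and Rgs5 -0.0361 on chip 1 alone. List medians moved for PDGF (0.0574 with median scaling, 0.11 on chip 1, -0.11 on chip 2), endothelial transcription factors (0.0846 on chip 2), Wnt (0.027 with median scaling), arterial and venous genes (from -0.191 to 0.0032 with 1 array left out, the highest without Control 2), other pericyte genes (0.0724 on chip 1), microglia (-0.0776 on chip 1, 0.0748 on chip 2) and astrocytes (0.0835 with median scaling, -0.0382 on chip 1). The chip difference of Rgs5 passed without background correction (0.258), with the authors' table (0.258), with the strict filter (0.387) and without the group term (0.404). The cause of these changes was not tested. Same-numbered EtOH and Control arrays had correlated deviations of 0.0789 to 0.268, over 0.1 for all numbers but replicate 3. The deviations had group means removed but not chip means. Same-numbered arrays shared a chip except for numbers 3 and 4, so these values cannot tell pairing from the chip. The main fit did not take the numbers as pairs, and the replicate block was run as an alternative. Of 12 arrays, 4 correlated best with their own number. The replicate block gave 0 calls and 917 probes at an unadjusted p under 0.05, against 702 without it. For the 10 genes the block gave a median of -0.0266 with 5 positive, and at an unadjusted p under 0.05 it had 0 higher and 1 lower gene (Cldn5), against 1 higher and 0 lower without the block. Kdr without EtOH 1 (0.31) and Pdgfrb without EtOH 5 (-0.36) also had an unadjusted p under 0.05. Intervals as wide as 0.508 on the log2 scale (Cldn5) limit what 12 arrays can show.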
